A study of Mus musculus with 7 samples.

Results

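The genome-wide PU.1 ChIP-Seq peaks of mouse myeloid precursors (MPs) included 883 dense clusters, in which 10 or more peaks followed each other without a gap of more than 12.5 kb. The clusters were chosen by joining the PU.1 peaks of MPs on chromosomes 1 to 19 and X into regions and keeping regions of at least 10 peaks. This kept 883 of 30617 regions, and 12030 of the 76159 PU.1 peaks of MPs, or 15.8%, lay in them. A cluster was said to have grown between 2 libraries where its summed PU.1 peak score was at least 25% higher, and to have shrunk where it was at least 20% lower. The PU.1 peaks of MPs therefore chose the clusters, and every change measured from MPs is a description of the clusters and not a test.

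The study followed the binding of PU.1 and MITF while osteoclasts (OCs), the cells that resorb bone, formed from MPs. Marrow flushed from the bones of C57BLACK6 mice aged 4 to 6 weeks was grown for 3 days with 50 ng/mL of recombinant human CSF1, and these cells are the MPs. MPs were then given 100 ng/mL RANKL, the cytokine that starts OC formation, for 36 h, or for 72 h to give OCs. PU.1 and MITF were each immunoprecipitated with 5 µg of antibody from MPs, from cells at 36 h and from OCs, and an IgG control was made from MPs. Each of the 7 groups had 1 library, so no value has a replicate error and no difference between conditions was tested. All groups were grown from wild-type marrow with CSF1, and the cultures were not described as sorted.

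PU.1 is an Ets-family transcription factor (TF) that B cells and myeloid cells need to form, and macrophages carry it at a very large number of sites. It binds a purine-rich sequence around the core GGAA and opens chromatin where other TFs then bind. Stretches in which sites of a lineage TF lie close together are typical of superenhancers, the strong regulatory regions near genes that define a cell type. MITF is a basic helix-loop-helix factor that joins PU.1 at OC genes such as those for proton pumps and bone-degrading enzymes. No histone mark was used here, so the clusters are dense binding regions and were not called superenhancers.

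The PU.1 lists held many more peaks and tags than the MITF lists. The 3 PU.1 lists held 76243 peaks in MPs, 71941 at 36 h and 77072 in OCs, with 1878524, 1866941 and 2095716 tags inside peaks. The MITF lists held 5413, 3540 and 4443 peaks with 80119, 122872 and 57514 tags. A peak score is the number of sequence tags in the peak scaled to a common library size, and 1 tag was worth 1.71 score units in the PU.1 library of MPs, 1.48 at 36 h and 1.47 in OCs. In the MITF libraries 1 tag was worth 1.04, 0.973 and 1.14 units. PU.1 peaks were 150 bp wide in MPs and OCs but 190 bp at 36 h, and the smallest distance between the centers of neighbouring peaks was 370 bp in MPs and OCs and 444 bp at 36 h. The scores as a whole also shifted. The median of all overlapping pairs changed by -0.12 on the log2 scale from MPs to 36 h, by 0.11 from 36 h to OCs and by -0.02 from MPs to OCs, and the summed score of the lists by -0.22, 0.16 and -0.06. Changes of clusters are therefore also given after division by the summed score of each list.

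The highest PU.1 peak of a cluster shows what sequence the strongest binding in it sits on. The peaks below, each 151 bases of the mm9 genome written on the plus strand, come from clusters at genes that the results return to: clusters that gained PU.1 score with RANKL, clusters with the most MITF peaks, and clusters that lost PU.1 score. Capitals mark the PU.1 motif GAGGAAGT or its reverse complement ACTTCCTC, searched on both strands, and a sequence without capitals holds neither.
Tcirg1 cluster, chr19:3914640-3914790, an intron of Aldh3b1: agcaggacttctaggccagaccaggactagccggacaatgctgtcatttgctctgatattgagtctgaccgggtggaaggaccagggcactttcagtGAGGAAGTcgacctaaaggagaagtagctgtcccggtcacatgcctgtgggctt
Junb cluster, chr8:87506626-87506776, between genes: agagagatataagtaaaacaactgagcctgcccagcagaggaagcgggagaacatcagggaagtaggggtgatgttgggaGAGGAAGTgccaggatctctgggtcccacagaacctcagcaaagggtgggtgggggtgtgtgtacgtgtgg
Nfkbie cluster, chr17:45721107-45721257, between genes: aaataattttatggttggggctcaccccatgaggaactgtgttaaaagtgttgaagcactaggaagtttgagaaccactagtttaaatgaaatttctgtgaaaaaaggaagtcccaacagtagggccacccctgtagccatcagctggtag
Fli1 cluster, chr9:32280080-32280230, an intron of Fli1: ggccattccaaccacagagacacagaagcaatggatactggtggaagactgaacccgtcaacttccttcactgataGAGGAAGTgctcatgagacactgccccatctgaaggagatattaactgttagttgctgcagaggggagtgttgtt
Inpp5d cluster, chr1:89534903-89535053, an intron of Inpp5d: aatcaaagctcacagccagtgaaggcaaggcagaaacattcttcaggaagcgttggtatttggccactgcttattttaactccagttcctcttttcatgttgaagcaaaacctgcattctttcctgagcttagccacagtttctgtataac
Cluster near Tomm20, chr8:129279710-129279860, between genes: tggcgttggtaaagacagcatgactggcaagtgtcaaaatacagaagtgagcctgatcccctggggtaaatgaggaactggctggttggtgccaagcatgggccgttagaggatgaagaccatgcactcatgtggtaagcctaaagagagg
Tox2 cluster, chr2:163092908-163093058, an intron of Tox2: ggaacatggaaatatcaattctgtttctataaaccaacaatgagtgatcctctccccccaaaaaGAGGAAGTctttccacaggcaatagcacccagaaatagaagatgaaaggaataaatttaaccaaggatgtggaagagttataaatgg
Gm17384 cluster, chr5:63207123-63207273, an intron of Gm17384: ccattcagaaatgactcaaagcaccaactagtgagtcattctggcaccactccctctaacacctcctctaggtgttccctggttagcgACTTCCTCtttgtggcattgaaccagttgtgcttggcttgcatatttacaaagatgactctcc
Runx1 cluster, chr16:92649630-92649780, an intron of Runx1: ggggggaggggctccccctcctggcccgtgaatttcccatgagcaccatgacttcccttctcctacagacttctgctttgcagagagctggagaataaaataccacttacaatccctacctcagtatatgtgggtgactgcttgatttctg

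Of the highest peaks of the 48 clusters chosen for naming, 21 held the motif within the 151 bases. By the gene annotation 22 of the 48 lay in introns, 3 touched an exon and 23 lay between coding genes. The Junb peak, 4084 bp from the nearest transcription start site (TSS), scored 170.6 in MPs, 195.1 at 36 h and 204.1 in OCs. The Tox2 peak scored 191.0, 94.6 and 116.0 in the same order, so its level with RANKL was lower in both libraries. The peak near Tomm20 scored 308.7, 279.4 and 242.3 and held no copy of the motif. Motif content is counted over all cluster peaks further on.

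Clusters were long and most of their score lay in more than 1 peak. They covered 49848661 bp in all, 1.89% of the sequence of these chromosomes, and held 19.2% of the summed PU.1 score of MPs. Their length had a median of 52721 bp and ran from 19264 to 173977 bp. The median cluster had 12 peaks, 76 clusters had 20 or more, and neighbouring peaks lay a median of 3553 bp apart. The highest peak held a median of 23.4% of a cluster's score, with a range of 7.89% to 55.0%. Peaks inside clusters had a mean score of 51.0 in MPs, 50.6 at 36 h and 51.4 in OCs, against 40.4, 36.4 and 38.0 for peaks elsewhere.

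The threshold of 10 peaks divided regions that were otherwise much alike. The 283 regions of 9 peaks, just outside, had a median summed score in MPs of 419.7 and a median length of 37477 bp. The 202 regions of 10 peaks, just inside, had 479.3 and 40617 bp. Their median change from MPs to OCs was -0.12 and -0.10 on the log2 scale. Per megabase, chromosome 11 held the most clusters, 75 or 0.616 per Mb, and X the fewest, 8 or 0.048 per Mb.

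The cluster with the most peaks spanned Map3k14, Arhgap27 and Plekhm1 (chr11:103107941-103280724). Map3k14 encodes the NF-κB-inducing kinase of the non-canonical NF-κB pathway and Plekhm1 a lysosomal protein needed for bone resorption. This cluster had 41 peaks in MPs, 39 at 36 h and 45 in OCs, with summed scores of 1752.1, 1542.1 and 1795.8. The mean score per peak was 42.7, 39.5 and 39.9, so its sums moved little in either direction. The second cluster by number of peaks was intergenic (chr8:129279710-129453687), 16036 bp from the TSS of Tomm20, a subunit of the mitochondrial import receptor. It had 38, 34 and 35 peaks and the highest summed score of all clusters in MPs, with 2736.2, 2765.3 and 2623.8 in MPs, at 36 h and in OCs.

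The other 8 of the 10 clusters with the most peaks had 27 to 34 in MPs. They were at Zfp36l2 and Thada, Mbnl1, near Tmco5, at Ly9, Slamf7 and Cd48 (receptors of the SLAM family), at the Tnf and Lta locus, and at Aff1, Pcna with Cds2, and Rbm47. The Tnf cluster, which runs from Prrc2a to H2-D1, had 30 peaks in MPs, 27 at 36 h and 32 in OCs, with summed scores of 1460.2, 1462.1 and 1631.8. The SLAM cluster had 30, 23 and 25 peaks and sums of 1633.9, 1130.8 and 1402.1. The Tnf sum was highest in OCs and the SLAM sum in MPs. None of these 10 clusters grew or shrank by that measure from MPs to OCs.

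Genes in the clusters were counted by overlap of the gene body with the mm9 annotation. The clusters held 1375 of 22208 coding genes, or 6.19%, and 66.0% of clusters contained a TSS. A single coding gene was found in 449 clusters, 2 or more in 331 and none in 103. Asap1 overlapped 4 clusters and Runx1 3. The share in clusters ran from 27.3% to 59.1% over the lists of OC and macrophage genes and was 4.17% for genes of other blood lineages. The lists were drawn up for roles in these cells with earlier results of these data known, so the shares describe them.

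Among TFs that promote OC formation, 6 of 22 annotated genes (27.3%) lay in clusters. They were Nfatc1, the master TF of OCs, the AP-1 members Fosl2, Jun and Junb, the repressor Prdm1, and Nfatc2. The Nfatc1 cluster had 10, 9 and 10 PU.1 peaks in MPs, at 36 h and in OCs and summed scores of 668.8, 605.8 and 637.3. The Fosl2 cluster had 13, 11 and 11 peaks and sums of 858.1, 915.1 and 782.8. Neither cluster met the call for growth or loss on the deposited scores. Dense PU.1 at both genes before RANKL is what the rule asked for and no separate result. A cluster that ended 17 bp from Fos, the AP-1 gene without which OCs do not form, was named after its values were seen. It had 14, 13 and 13 peaks and sums of 702.8, 833.7 and 812.0, a ratio of OCs to MPs of 1.16 (95% interval 1.015 to 1.32, from the tags).

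Among TFs that restrain OC formation, 5 of 12 (41.7%) lay in 7 clusters: Irf8, Bcl6, Runx1, Rbpj and Cebpa. Irf8, whose product blocks Nfatc1, had 12, 11 and 13 peaks and sums of 825.7, 607.6 and 729.8. Bcl6, which encodes a repressor of OC genes, had 12, 13 and 11 peaks and sums of 741.9, 619.4 and 621.3. The Cebpa cluster stood at 510.1, 542.4 and 600.6. The first of the 3 Runx1 clusters was the only one of the 7 that shrank from MPs to OCs and is described with the falls. Of the wider list of PU.1 partners and myeloid TFs, 15 of 34 (44.1%) lay in 18 clusters, of which 3 shrank and none grew from MPs to OCs. Of all 883 clusters 14.3% shrank and 1.59% grew, and of all regions 39.8% and 13.5%. The 3 were at Mef2c (720.0 in MPs, 471.6 at 36 h, 562.5 in OCs), the Ets factor gene Ets1 (508.3, 307.4 and 358.3) and the Runx1 cluster just mentioned.

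Effector genes of OCs were in clusters for 8 of 22 (36.4%): Ctsk, Mmp9, Tcirg1, Atp6v0d2, Itgb3, Tnfrsf11a, Snx10 and Plekhm1. Ctsk, the gene of the collagen-degrading protease cathepsin K, had 12, 11 and 11 peaks and sums of 1129.4, 892.7 and 904.4, the highest in MPs. The cluster at Tnfrsf11a, the receptor for RANKL, stood at 458.7, 427.1 and 515.4. Mmp9, a matrix metalloproteinase gene, stood at 532.2, 543.9 and 530.2. Of the 8, 1 grew from MPs to OCs, at Tcirg1, and none shrank, against 1.59% and 14.3% of all clusters and 13.5% and 39.8% of all regions. The Atp6v0d2 cluster (834.1, 552.8 and 738.5), at the proton pump subunit needed for cell fusion, and the Itgb3 cluster (484.8, 311.9 and 415.5), at the integrin subunit of OCs, were lowest at 36 h and grew from 36 h to OCs.

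Macrophage receptors and surface proteins were in clusters for 23 of 45 genes (51.1%), in 20 clusters. Of the 20, 1 grew from MPs to OCs, at Itgal, and 3 shrank, where 1.59% and 14.3% of all clusters and 13.5% and 39.8% of all regions did. Those that shrank held Fcgr1, the high-affinity IgG receptor (779.8, 498.1 and 595.1), Fcer1g, the chain that Fc receptors signal through (984.4, 779.0 and 782.5), and the inhibitory receptor gene Cd300lf (690.9, 470.1 and 499.1). The cluster at Csf1r, the CSF1 receptor, had 14, 13 and 16 peaks and nearly level sums of 861.4, 848.5 and 844.4. From 36 h to OCs 8 of the 20 grew and none shrank, against 20.05% and 1.246% of all clusters and 31% and 18.2% of all regions.

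Chemokine and cytokine genes had the highest share, 13 of 22 (59.1%), in 8 clusters. The cluster at Ccl2 and Ccl7, chemokines that draw monocytes, shrank, as 14.3% of all clusters and 39.8% of all regions did, with 1432.9 in MPs, 1064.3 at 36 h and 1129.3 in OCs. The other 7 did not meet that call. The cluster at Ccl3, Ccl4 and Ccl6 stood at 1629.1, 1181.2 and 1462.6. Signaling and feedback genes were in clusters for 14 of 30 (46.7%), in 15 clusters, of which those at Dusp1, a phosphatase of MAP kinases (900.7, 560.2 and 635.9), and Spred1, a Ras pathway inhibitor (455.3, 257.2 and 340.7), shrank from MPs to OCs. Of 24 genes of other blood lineages, such as Pax5, Cd3e and Gata1, only Prtn3 (4.17%), a granule protease of neutrophils and their precursors, was in a cluster, with sums of 293.4, 246.9 and 290.8.

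From MPs to OCs, 14 of the 883 clusters (1.59%) grew in summed PU.1 score and 126 (14.3%) shrank. The counts were 13 and 59 when only overlapping peaks were counted and 9 and 66 when a missing peak was given the lowest score. Over all 30617 regions the same call was met by 13.5% that grew and 39.8% that shrank, and over regions of 5 to 9 peaks by 4.89% and 23.8%, so both shares were lower in the clusters. Since a sum over many peaks varies less than a sum over few, these shares are not like for like. The median change of the clusters was -0.10 on the log2 scale, with 632 lower and 251 higher. After division by the summed score of each list, 21 clusters grew and 84 shrank, and over all regions 16.2% grew and 36.1% shrank.

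The balance of growing and shrinking clusters differed with the list that chose them. When the same rule was applied to the 36 h list it gave 716 regions, of which 43 (6.01%) grew and 46 (6.42%) shrank from MPs to OCs. Applied to the OC list it gave 915, of which 68 (7.43%) grew and 42 (4.59%) shrank. Of the 883 clusters, 643 (72.8%) overlapped a region that the OC list also made dense, and 642 of the 915 dense OC regions (70.2%) overlapped a cluster of MPs. For the 36 h list, 530 clusters (60.02%) and 523 of its 716 regions (73.0%) overlapped.

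**Figure D1:**
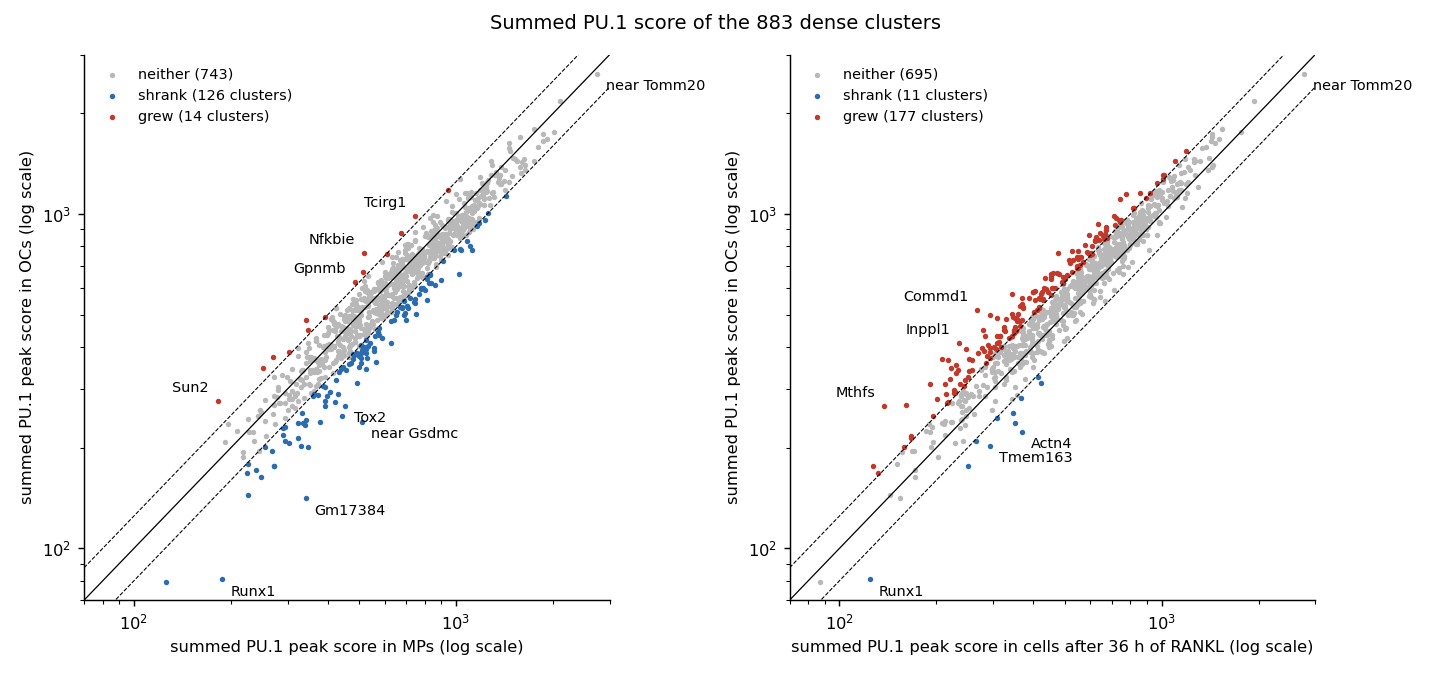
Summed PU.1 score of each of the 883 clusters, in score units on log axes, in MPs against OCs (left) and at 36 h against OCs (right), with 1 point per cluster and 1 library per axis. The dashed lines mark a rise of 25% and a fall of 20%. From MPs to OCs 14 clusters lay above the upper line and 126 below the lower one, and from 36 h to OCs 177 lay above and 11 below.

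The largest rise from MPs to OCs was at Sun2 and Dnalc4 (chr15:79569902-79605019), a cluster of low peaks with 10, 12 and 11 peaks and sums of 182.4, 304.4 and 276.0, a ratio of OCs to MPs of 1.51 (95% interval 1.19 to 1.94). All intervals of such ratios are exact binomial intervals from the tags and cover counting error only. Clusters named for the largest rises and falls were chosen by that same ratio, so their intervals are no test of the change. The second was at Nfkbie, Slc35b2, Hsp90ab1 and Slc29a1 (chr17:45692382-45735125). Nfkbie encodes IκBε, an inhibitor of NF-κB that NF-κB itself induces, and Slc29a1 a nucleoside transporter. This cluster had 13, 14 and 16 peaks and sums of 516.9, 641.4 and 763.4, a ratio of 1.48 (1.28 to 1.71). Inside Nfkbie, the peak 1195 bp from a TSS scored 92.1 in MPs, 131.6 at 36 h and 143.9 in OCs. Its 2 highest peaks in MPs, at 112.6 and 110.9, scored 114.5 and 118.9 in OCs, so they stayed nearly level between these libraries.

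At Tcirg1, which encodes the proton pump subunit of the OC's ruffled border, the cluster (chr19:3899105-3936668) also holds Ndufs8, Aldh3b1 and Unc93b1. It had 12, 12 and 13 PU.1 peaks and sums of 747.1, 850.0 and 989.9, a ratio of 1.32 (1.17 to 1.50), with mean scores per peak of 62.3, 70.8 and 76.1. All 12 of its MP peaks overlapped a peak at 36 h and in OCs. The Junb cluster (chr8:87492604-87521998) had 10, 8 and 10 peaks and sums of 513.5, 561.6 and 669.6, a ratio of 1.30 (1.12 to 1.51). In both clusters the sums stood in the order MPs, 36 h, OCs. At Gpnmb (chr6:48953456-49014215), the gene of a membrane glycoprotein of OCs and macrophages, there were 13, 15 and 16 peaks and sums of 484.6, 489.2 and 624.2, a ratio of 1.29 (1.11 to 1.50).

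The other clusters that grew were at Hes2 and Acot7 (ratio 1.42), from Atf5 to Ptov1 with Il4i1 (1.39), from Zfp771 to Itgal (1.38), at Spata13 (1.31), at Nr1d1 and Msl1 (1.29), at Osbpl9 (1.28), Timp2 (1.26), Stxbp3a and Fndc7 (1.252) and Nrp2 (1.251). Itgal encodes the αL chain of the integrin LFA-1, and Nr1d1 the nuclear receptor REV-ERBα. The Itgal cluster had 11, 10 and 13 peaks and sums of 250.7, 221.8 and 346.6, with the lowest value at 36 h. Of the 10 largest rises, 4 no longer met the call under one or both other ways of counting peaks. With overlapping peaks only the ratio was 1.23 from Zfp771 to Itgal, 1.24 at Spata13 and 1.16 at Gpnmb. With a missing peak at the lowest score it was 1.24 from Atf5 to Ptov1, 1.24 at Spata13 and 1.20 at Gpnmb. The 14 clusters had a median mean score per MP peak of 35.7, against 49.2 in the 743 clusters that met neither call, and 13 of the 14 contained a TSS (92.9%, against 66.9%). A low MP score raises the ratio that chose the 14, so their lower score is a description and no separate result. The Nrp2 cluster also held a peak of the IgG control that overlapped none of its MP peaks.

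The largest fall was at Gm17384 (chr5:63207123-63250036), an annotated coding gene model, with 12, 5 and 5 peaks and sums of 340.9, 153.8 and 141.0, a ratio of 0.414 (0.321 to 0.530). With overlapping peaks only this ratio was 0.641, and with a missing peak at the lowest score 0.625, both above that interval. The second fall was the Runx1 cluster (chr16:92612791-92654347), which lies within this TF gene. It had 10, 6 and 4 low peaks and sums of 187.6, 124.2 and 80.8, a ratio of 0.431 (0.306 to 0.600). When only overlapping peaks were counted the ratio was 0.816 and no longer met the call, and when a missing peak was given the lowest score it was 0.760. The other 2 Runx1 clusters had sums of 747.1, 557.2 and 706.3, and of 687.4, 493.8 and 558.1, and did not meet the call.

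The Tox2 cluster (chr2:163046541-163093058), at a gene of an HMG-box TF, had 11, 5 and 7 peaks and sums of 452.0, 238.0 and 267.2, a ratio of 0.591 (0.487 to 0.717). The cluster near Gsdmc, 86764 bp from its TSS, had 15, 9 and 10 peaks and sums of 511.5, 221.7 and 239.4, a ratio of 0.468 (0.384 to 0.568). The remaining 6 of the 10 largest falls were at Scamp1 (0.562), near Frmd6 (0.578), and at Tmem163 (0.613), Ldb1 with Pprc1 (0.630), Rgs13 (0.632) and Etv5 with Dgkg (0.635). Ldb1 and Pprc1 held low peaks only, with 125.9, 87.0 and 79.3, and the direction of this ratio turned under both other ways of counting peaks, to 1.33 with overlapping peaks only and 1.04 with a missing peak at the lowest score. With overlapping peaks only, the falls near Frmd6 (0.817) and at Tmem163 (0.8085) no longer met the call, nor did the one at Etv5 with a missing peak at the lowest score (0.817). Of the 126 shrinking clusters, 24 (19.05%) held no coding gene, against 10.6% of the clusters that met neither call.

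**Figure D2:**
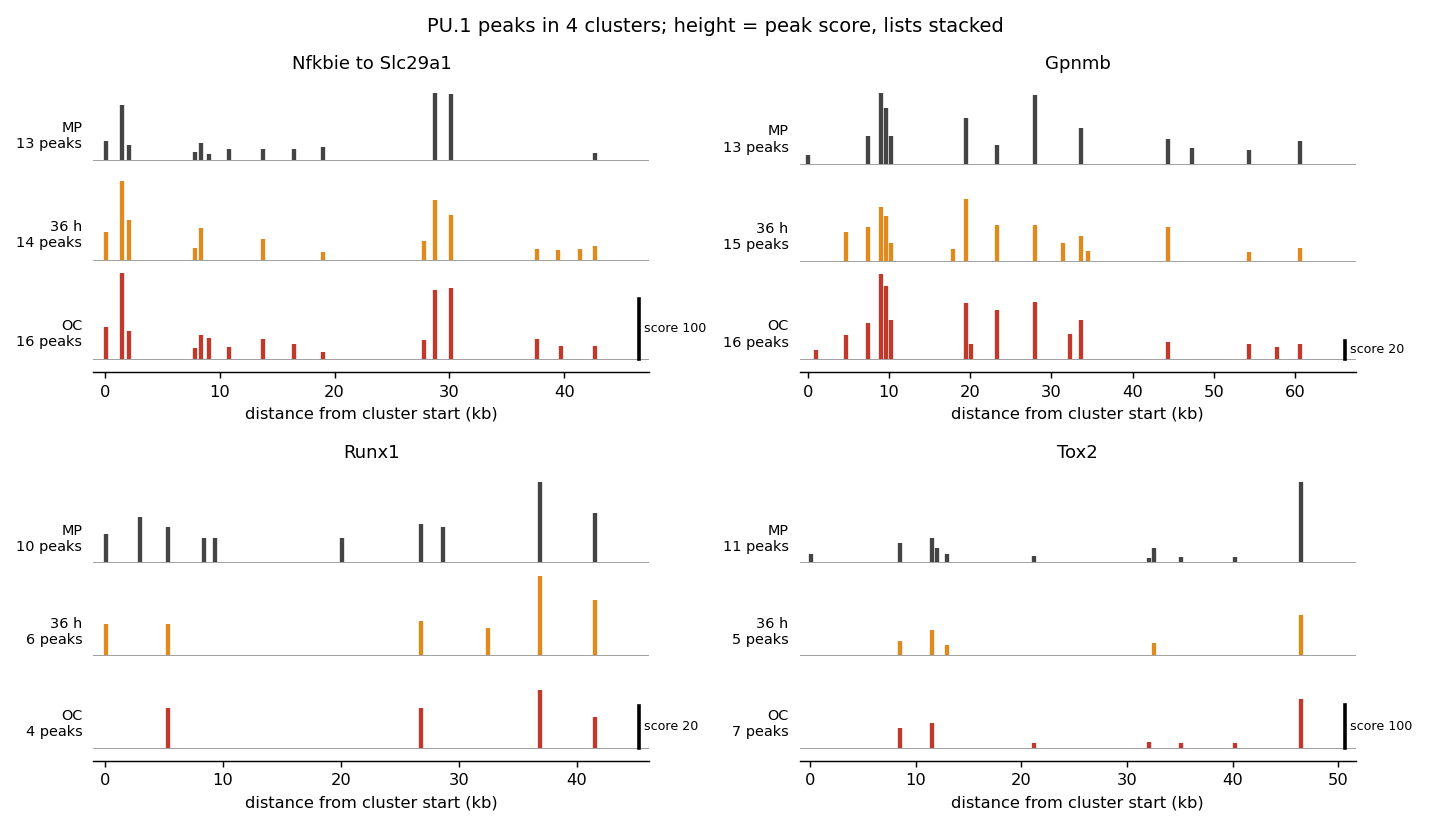
PU.1 peaks of 4 clusters, Nfkbie to Slc29a1, Gpnmb, Runx1 and Tox2, drawn at their distance from the cluster start in kb, with 1 row per library (MPs, 36 h, OCs) and line height giving the peak score on the scale bar of the panel. The Nfkbie and Gpnmb clusters had 16 peaks each in OCs against 13 in MPs, and the Runx1 and Tox2 clusters 4 and 7 against 10 and 11.

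The comparison of 36 h with OCs used neither the list nor the library that chose the clusters. From 36 h to OCs, 177 clusters (20.05%) grew and 11 (1.246%) shrank, with a median change of 0.17 on the log2 scale and 735 clusters higher in OCs against 148 lower. Of all 25249 regions with a 36 h peak 31% grew and 18.2% shrank, and of regions of 5 to 9 peaks 27.8% grew and 4.95% shrank. Both shares were smaller in the clusters than in either background. Since a sum over many peaks varies less, these shares are not like for like. The median change was close, 0.1685 in clusters and 0.1657 in regions of 5 to 9 peaks. Scores as a whole were higher in OCs, and after division by the summed score of each list 55 clusters grew and 33 shrank, with a median of 0.01, while 19.9% of all regions grew and 25.5% shrank. The excess of growth over loss in the clusters was 177 to 11 on the deposited scores and 55 to 33 on the scaled ones. The 36 h library had wider peaks, and the part of this width in the result was not tested.

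The largest rise from 36 h to OCs was at Mthfs (chr9:89115818-89168797), a folate enzyme gene, from 4 to 9 peaks and from 137.5 to 267.2, a ratio of 1.94 (1.51 to 2.52). It had stood at 392.2 in MPs with 12 peaks, so OCs remained below MPs. At Commd1 and B3gnt2 the sum went from 267.6 to 515.3 with 10 and 16 peaks, a ratio of 1.93 (1.61 to 2.32), against 474.4 in MPs. The next 3 were at 2010111I01Rik (1.77), at Inppl1 with the folate receptor genes Folr2 and Folr1 (1.75), and at Lnpep (1.69), and their OC sums were 0.959 to 1.05 times those of MPs. The Lnpep ratio was 1.19, short of the call, with overlapping peaks only, and 1.33 when the higher of peaks under 600 bp apart was kept, an alternative chosen after seeing the data. These 5 clusters, chosen for their rise from 36 h, had their lowest sum of the 3 libraries at 36 h.

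The largest fall from 36 h to OCs was at Actn4, Eif3k and Map4k1 (chr7:29717810-29770465), with 13, 14 and 11 peaks and sums of 226.8 in MPs, 369.4 at 36 h and 223.3 in OCs, a ratio of 0.605 (0.490 to 0.742). Actn4 encodes an actin cross-linking protein. This cluster was thus high at 36 h alone. The Runx1 cluster followed with a ratio of 0.651 (0.454 to 0.925), then Camk2g (0.679), Tmem163 (0.693) and Lrrc51 with Numa1 (0.705). With overlapping peaks only the ratios at Runx1 (0.841), Tmem163 (0.927) and Lrrc51 (0.811) did not meet the call, nor did Runx1 with a missing peak at the lowest score (0.816). The Camk2g cluster held a peak of the IgG control.

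Clusters of the macrophage surface list grew from 36 h to OCs in 8 of 20 cases, against 20.05% of all clusters and 31% of all regions, and in 3 of 20 on scaled scores, against 19.9% of all regions. The mannose receptor gene Mrc1 had 10, 8 and 9 peaks and sums of 607.3 in MPs, 436.1 at 36 h and 643.1 in OCs, and Tlr4, the lipopolysaccharide receptor, 677.3, 455.0 and 640.2. With Itgal these were the largest ratios of the list, at 1.56 for Itgal, 1.47 for Mrc1 and 1.41 for Tlr4. In the lysozyme cluster of Lyz1 and Lyz2 the sums were 755.6, 548.5 and 734.1, at Mertk, a receptor for dying cells, 864.8, 586.9 and 769.5, and at Sirpa, an inhibitory receptor, 1470.3, 1190.0 and 1546.4. The cluster at Cd14, a co-receptor for lipopolysaccharide, had a ratio of 1.254. All 8 had their lowest sum at 36 h. They were chosen for a rise from 36 h to OCs, and of all 883 clusters 776 were lower at 36 h than in MPs.

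In the other lists the call was met by 1 of 6 clusters of OC-promoting TFs, 1 of 7 of restraining TFs, 2 of 18 of PU.1 partners, 2 of 8 of OC effectors and 2 of 15 of signaling genes, against the same 20.05% of clusters and 31% of regions. Among OC-promoting TFs it was the Prdm1 cluster, with sums of 605.6, 455.3 and 599.0, and among the restraining TFs the second Runx1 cluster (1.27). The Lmo2 cluster (583.3, 351.8 and 489.2), at a TF adaptor of early blood cells, was the other in the list of PU.1 partners. Among signaling genes it was Spred1 (1.32) and 1 of 2 clusters at Elmo1 (1.39), an activator of Rac. None of the 8 chemokine and cytokine clusters met it. On scaled scores none of these clusters, nor those at Atp6v0d2 and Itgb3, met the call for growth. On those scores 1 cluster shrank in each of the promoting, restraining, PU.1-partner and signaling lists, against 0, 1, 1 and 0 on deposited scores. The restraining and PU.1-partner lists share the Runx1 cluster. Of all 883 clusters 33 shrank on scaled scores, and of all regions 25.5%.

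From MPs to 36 h, 4 clusters (0.453%) grew and 368 (41.7%) shrank, with a median of -0.27 on the log2 scale. Over all regions 10.3% grew and 53.6% shrank, and over regions of 5 to 9 peaks 2.78% grew and 46.3% shrank. On scores divided by the summed score of each list 45 clusters grew and 133 shrank, with a median of -0.06, against 18.9% and 39.8% of all regions. The 4 that grew were Sun2 with Dnalc4 (1.67), Actn4 with Map4k1 (1.63), Dll4 with Chac1 (1.39) and Csf2rb2 with Csf2rb (1.28). Dll4 encodes a Notch ligand and Csf2rb the shared signaling chain of the GM-CSF receptor and its relatives. The Dll4 cluster had sums of 298.5, 414.0 and 325.9 and the Csf2rb cluster 479.4, 614.9 and 556.4, each highest at 36 h. The largest falls were at Mthfs (0.351), near Gsdmc (0.433), at Gm17384 (0.451), near Frmd6 (0.455) and at Mrpl48 with Rab6 (0.465).

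Fewer peaks lay in the clusters in the later libraries, while the mean score per peak was close to that of MPs. Clusters held 12030 PU.1 peaks in MPs, 10063 at 36 h and 11116 in OCs. Against MPs, 523 clusters had fewer peaks in OCs, 190 the same number and 170 more, with changes of -7 to 6 peaks. At 36 h, 740 had fewer, 81 the same and 62 more. In OCs 190 clusters had under 10 peaks and at 36 h 319 did. The clusters were kept for 10 or more MP peaks, so lower numbers in the other lists are partly built into the rule. As a whole the lists held 76243 peaks in MPs, 71941 at 36 h and 77072 in OCs. The same rule applied to each list gave 883, 716 and 915 dense regions.

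Most single peaks of the clusters were found again. Of the 12030 MP peaks in clusters, 76.1% (95% Wilson interval 75.3 to 76.8) overlapped a PU.1 peak at 36 h and 82.0% (81.3 to 82.7) one in OCs, against 73.5% and 78.2% of peaks elsewhere. Both a 36 h and an OC peak were present for 8545 (71.0%) and neither for 1556 (12.9%), against 67.0% and 15.3% of peaks elsewhere. Among cluster peaks the MP score had a median of 44.4 in those with both and 13.6 in those with neither. Every MP peak was found again in OCs in 81 clusters and at 36 h in 27. Of the pairs of overlapping MP and OC peaks in clusters, 205 of 9868 (2.08%) were at least 2 times higher in OCs and 204 (2.07%) at least 2 times lower. Among pairs elsewhere these shares were 2.81% and 2.58%.

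The higher overall share in clusters came with higher scores, and at like score the order was the opposite. In each of 9 classes of MP score the share found again was lower in clusters than elsewhere, both at 36 h and in OCs, and the 95% intervals were apart in 4 of the 9. For scores of 25.6 to 30.7 it was 77.1% in clusters and 86.3% elsewhere at 36 h, and 88.3% and 92.3% in OCs. In the highest class, from 100.6, the OC shares were 99.5% and 99.7%, with overlapping intervals. Cluster peaks also lay closer to their neighbours, with 10.3% under 600 bp from the nearest MP peak against 5.65% elsewhere. For scores of 20 to 60, cluster peaks under 600 bp from a neighbour were found again at 36 h in 57.7% and in OCs in 81.0%, and those 2000 bp or more away in 87.3% and 91.9%. Peaks elsewhere gave 66.0% and 85.8% at the short distance and 89.5% and 93.8% at the long one. The share thus rose with distance inside and outside clusters, and at the long distance clusters were lower by a smaller amount. The rule counted MP peaks alone, so MP peaks without a later peak could bring a region to 10. The lower shares in clusters are therefore a description and not a test.

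**Figure D3:**
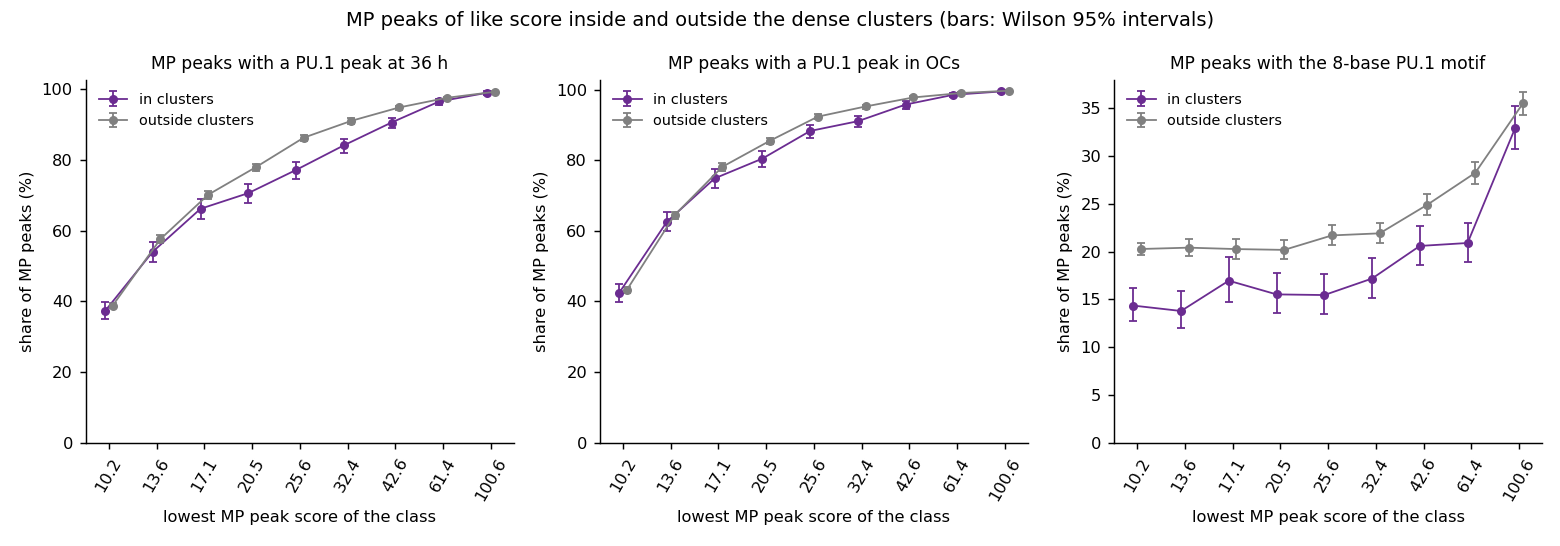
Share of PU.1 MP peaks, in percent, that overlapped a PU.1 peak at 36 h (left) or in OCs (middle), or that held the 8-base PU.1 motif within 100 bp of the center (right), in 9 classes of MP peak score, for peaks in clusters and peaks outside. Bars are 95% Wilson intervals. Cluster peaks lay below the others in all 9 classes of each panel, and in the highest score class the intervals overlapped.

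OC peaks in clusters that overlapped no MP peak were low. Of the 11116 OC peaks in clusters, 1256 (11.3%) overlapped no MP peak, and their median score was 14.7 against 38.2 for the others. The rule asked for many MP peaks, so a small share is partly built in. Over the whole lists 60100 MP peaks overlapped an OC peak, and OCs had 77072 peaks. Of these 1256, 457 (36.4%) overlapped a peak at 36 h. In the Tcirg1 cluster the only such peak scored 47.0, at 9 bp from the TSS of Unc93b1, a chaperone of endosomal Toll-like receptors.

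Copies of the PU.1 motif were less frequent in cluster peaks than in other peaks of like score. Within 100 bp of the center GAGGAAGT stood in 19.2% of cluster peaks (18.5 to 19.9), 23.2% of other MP peaks and 22.5% of all 76159. The share in clusters was lower in all 9 score classes, with intervals apart in 7, for example 20.9% against 28.3% for scores of 61.4 to 98.9 and 14.4% against 20.3% in the lowest class. Of the highest peaks of the 883 clusters 290 (32.8%) had it. Among cluster peaks it was found in 21.9% of those present in all 3 libraries and in 11.1% of those with no later peak.

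Other motifs differed little between cluster peaks and the rest. The AP-1 motif TGANTCA was in 12.6% of cluster peaks and 11.3% of others, and the RUNX motif TGTGGT in 18.6% and 17.2%. The C/EBP motif TTGCNNAA was in 10.8% and 11.01% and the MITF motif TCANGTGA in 3.02% and 3.03%. All were searched on both strands, and a short sequence such as TGTGGT occurs often without binding. Cluster peaks lay within 1000 bp of a TSS in 8.66%, against 10.99% of others, and their median GC content was 48.3% against 46.8%.

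The share of clusters with MITF depended on the score asked of an MITF peak. At least 1 MITF peak lay in 608 clusters in MPs (68.9%), 488 at 36 h (55.3%) and 544 in OCs (61.6%). Among MITF peaks of 2 or more times the minimum score of their list it was 211, 331 and 164, so that 36 h had the most clusters instead of the fewest. Of all regions 13.8%, 9.29% and 11.3% had one, and of regions of 5 to 9 PU.1 peaks 38.7%, 26.5% and 32.2%. The share rose with the number of PU.1 peaks, from 4.68% of regions with 1 PU.1 peak to 92.1% of clusters with 20 or more in MPs, and from 3.76% to 85.5% in OCs. A region with more peaks has more places for MITF, but MITF peaks per 100 PU.1 MP peaks were also more frequent. In MPs there were 4.68 in single-peak regions and 10.03 in clusters of 20 or more, at 36 h 2.83 and 6.19, and in OCs 3.76 and 7.135. Clusters of 10 to 14 peaks already had 9.24 in MPs, 6.07 at 36 h and 7.73 in OCs, so in OCs the largest clusters had no more than these.

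At like PU.1 score, peaks in clusters had MITF as often as other peaks within the counting error. In MPs an MITF peak overlapped 55.4% of cluster PU.1 peaks in the highest score class (53.1 to 57.8) and 55.7% of other peaks of that class (54.4 to 56.9). In OCs these shares were 42.2% (39.8 to 44.5) and 40.7% (39.5 to 42.0). For scores of 61.4 to 98.9 they were 11.13% and 11.03% in MPs. In no class and no library were the intervals apart. Of the MITF peaks inside clusters 99.4% in MPs, 98.5% at 36 h and 97.9% in OCs also lay over PU.1 binding called at that stage.

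**Figure D4:**
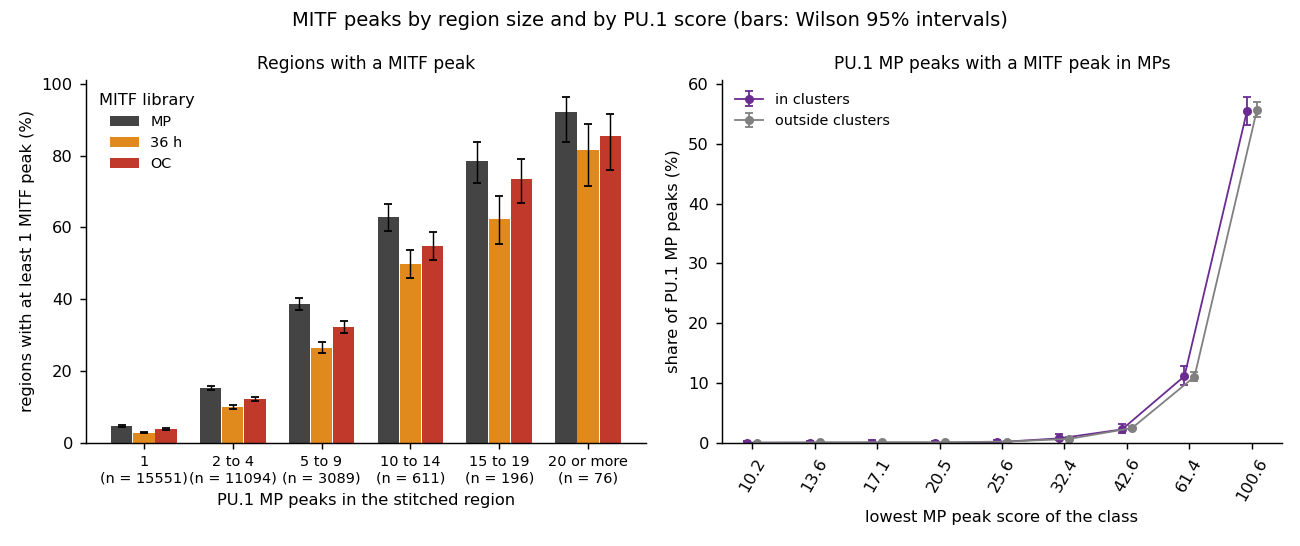
Left, share of stitched regions, in percent, with at least 1 MITF peak by the number of PU.1 MP peaks in the region, for MITF in MPs, at 36 h and in OCs. Right, share of PU.1 MP peaks with an MITF peak in MPs by 9 classes of PU.1 MP score, in clusters and outside. Bars are 95% Wilson intervals. The left share rose from 4.68% to 92.1% in MPs, and on the right the points in clusters and outside overlapped in every class.

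Which clusters held MITF was partly shared between stages. An MITF peak was found in all 3 libraries in 393 clusters (44.5%) and in none in 181 (20.5%). It was found in both MPs and OCs in 480, in MPs but not OCs in 128 and in OCs but not MPs in 64. Of 1149 MITF peaks of MPs in clusters, 630 (54.8%) overlapped an MITF peak of OCs, and these were 68.3% of the 922 OC peaks. Sharing between stages was not counted outside the clusters, so these values describe the clusters and do not set them apart from other regions. The 36 h MITF peaks were 150 to 1387 bp wide, against 150 bp in the other lists, and MITF peaks in clusters held a median of 12 tags in MPs, 23 at 36 h and 11 in OCs.

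The clusters with the most MITF peaks in MPs were near Tomm20, with 7 in MPs, 9 at 36 h and 7 in OCs, and at Inpp5d (chr1:89504367-89556082), with 7, 4 and 5. Inpp5d encodes the lipid phosphatase SHIP1, which restrains CSF1 and RANKL signaling in OCs. Its cluster had 16, 13 and 13 PU.1 peaks and sums of 1543.8, 1315.6 and 1441.7. Next were Ubac2 with Gpr183, Ccl2 with Ccl7, and Pcna with Cds2, with 6 each in MPs. The Ccl2 cluster had 6 MITF peaks in MPs, 1 at 36 h and 2 in OCs. In OCs the cluster at the Ets factor gene Fli1 had 6 MITF peaks, after 5 in MPs and 4 at 36 h. Its PU.1 sums were 1862.5, 1436.6 and 1735.5.

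The share of clusters with MITF was compared between the PU.1 calls. In OCs an MITF peak was present in 61 of the 126 clusters that shrank from MPs to OCs (48.4%, 39.9 to 57.1), in 476 of the 743 that met neither call (64.1%, 60.5 to 67.4) and in 7 of the 14 that grew (50.0%, 26.8 to 73.2). At 36 h the shares were 38.9% (30.8 to 47.6), 58.4% (54.8 to 61.9) and 35.7%. The intervals of the shrinking clusters and of those that met neither call were apart at both stages, and the wide interval of the 14 that grew overlapped both. In MPs, before any change, the shares were 59.5% of those that later shrank and 70.8% of those that met neither call, with intervals that overlapped. The shrinking clusters also had lower PU.1 scores in MPs, with a median sum of 516.1 against 660.2, and MITF went with PU.1 score throughout, so their part in the difference was not tested.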

How the data were processed

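ChIP-Seq for PU.1, MITF and IgG was analysed in MPs, at 36 h of RANKL and in OCs, with 1 library per group. The deposited peak lists give a HOMER peak score, which the authors made by aligning reads with Bowtie2 to mm9 and calling peaks in each library with HOMER. By HOMER's usual definition it is the tags in the peak scaled to a common library size. The submitters' processing notes name CASAVA 1.8, and the versions of Bowtie2 and HOMER are not given in the sources used here. All scores were whole multiples of 1 tag to within 0.06 units, from which tags were recovered. Peaks of each list were assigned to a cluster by their centers, and overlap meant at least 1 bp.

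The clusters, the gene lists and the tests were chosen with earlier results of these data known. A cluster was said to grow or shrink when its summed score was at least 25% higher or 20% lower, with an exact binomial (Clopper-Pearson) 95% interval of the tag ratio. Shares have Wilson 95% intervals. Both cover counting error only. Clusters named were the 10 with the most MP peaks, the 10 largest rises and falls from MPs to OCs, the 5 largest each way for 36 h to OCs and MPs to 36 h, the 5 with the most MITF peaks in MPs and in OCs, and those holding a listed gene. Others named were chosen after their values were seen. Genes and sequences came from the mm9 reference (NCBIM37, GENCODE vM1). Python 3.11.15, numpy 2.4.6, pandas 2.3.3, scipy 1.17.1 and bedtools 2.31.1 were used. Stitching gave 0 regions that differed from bedtools merge. The calls were also run on simulated tags, where some clusters drawn without a change met a call. Those tags were drawn from the MP library alone, without variation between libraries or in peak calling. The values of 2 clusters are not reported here.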

Additional observations from a re-analysis of the deposited data

Results flagged for a closer look

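The IgG control list of MPs was used only to leave out PU.1 peaks that overlap an IgG peak, which changed none of the counts of clusters. It held a peak inside 5 of the 883 clusters, and none of the 5 overlapped a PU.1 peak of MPs. The 5 were 1.87% of its 268 peaks on chromosomes 1 to 19 and X, and the clusters covered 1.89% of that sequence. The IgG peak scored 22.4 in the Nrp2 cluster, 35.3 in the Camk2g cluster, 25.6 in the Nt5c2 and Ina cluster and 35.3 in the Prex1 cluster, from 7 to 11 tags each in these 4.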

How the results depend on the processing

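No paired analysis was possible because each condition had 1 library, and no replicate could be left out. Counts below are given as grew and shrank, in the order MPs to OCs, 36 h to OCs and MPs to 36 h, where the reported values were 14 and 126, 177 and 11, and 4 and 368. A gap of 10000 bp left 539 clusters (9 and 77, 97 and 2, 2 and 233), and one of 15000 bp changed the growing clusters to 24 from MPs to OCs and 10 from MPs to 36 h. At least 8 peaks gave 1571 clusters (45 and 247, 337 and 37, 21 and 649), at least 15 gave 272 (1 and 28, 57 and 0, 0 and 125), and taking only peaks of 2 or more times the minimum score 201 (2 and 19, 41 and 0, 0 and 89). Fewer or more clusters entered these counts by construction. The rule on the 36 h list gave 43 and 46, 76 growing from 36 h to OCs, and 39 and 152. On the OC list it gave 68 and 42, 3 shrinking from 36 h to OCs and 19 growing from MPs to 36 h. Division by the summed score of the list gave 21 and 84, 55 and 33, and 45 and 133. Counting only overlapping peaks gave 59 shrinking from MPs to OCs, then 87 and 4, and 8 and 202. With a missing peak set to the lowest score the counts were 9 and 66, 105 and 4, and 244 shrinking from MPs to 36 h. A change of 1.5 times was met by 1 and 20, 17 and 2, and 2 and 107. Division by the median ratio of overlapping pairs, chosen after seeing the data, gave 80 and 19 from 36 h to OCs and 18 and 207 from MPs to 36 h. Keeping the higher of peaks under 600 bp apart, also chosen after seeing the data, gave 13 and 116, 139 and 12, and 5 and 318. The share of cluster peaks found again at 36 h was 74.7% with a reciprocal overlap of 50% and 78.5% among peaks of 2 or more times the minimum score, and in OCs 80.9% and 84.9%. MITF peaks of 2 or more times the minimum score were in 211 clusters in MPs, 331 at 36 h and 164 in OCs. The Ldb1 and Pprc1 ratio from MPs to OCs turned from 0.630 to 1.33 with overlapping peaks only and to 1.04 with a missing peak at the lowest score. Of the single-cluster ratios 126 stayed within their counting interval and 22 moved beyond it in the same direction. The 4000 highest MITF peaks could not be taken at 36 h, where the list holds 3540. Where no construction is named, the cause was not tested.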
